A study of Mus musculus with 36 samples.

Results

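The expression of 38 genes of the G2 phase and of mitosis was examined in primary mouse hepatocytes that carried a vector for the glucokinase regulatory protein (GKRP) and in hepatocytes that did not. The members are mitotic cyclins and Cdk1, mitotic kinases, the anaphase-promoting complex and checkpoint, kinesins, centromere and kinetochore proteins, spindle and cytokinesis proteins, and 3 genes of transcription and proliferation. They were chosen by name from a fixed list, and all 38 were found among the 52230 genes to which the deposited transcripts were assigned.

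RNA was sequenced from 36 hepatocyte cultures of 3 female P446L mice aged 14 wk. The labels gave the genotype as Gckr-446L for mouse 1 and mouse 2 and as Gckr-446P/L for mouse 3, whereas the study's methods describe hepatocyte donors of this strain as homozygous for 446L, so the genotype of mouse 3 is in doubt. All cultures, the untreated ones included, carried endogenous Gckr of these types, and if the labels hold, mouse 3 and genotype cannot be told apart. Cells were exposed to adenoviral vectors for human GKRP with proline or leucine at residue 446 (hP and hL) or for mouse GKRP with either residue (mP and mL), alone or together with a vector for glucokinase (GK), and were compared with untreated cells and with cells given the GK vector alone. All cultures received 10 nM insulin and 10 nM dexamethasone and were kept for 24 h before 4 h at 25 mM glucose. Untreated and GK alone had 2 cultures from each mouse and the other 8 conditions had 1. The 2 cultures of a mouse were summed, which left 30 samples, 1 per mouse and condition. Untreated cells carried no vector, cells with GKRP or GK alone carried 1 and cells with both carried 2, so an effect of GKRP cannot be told apart from one of vector load at either level of GK. A library held between 3924674 and 10046158 reads (median 5980276). Levels are given in CPM, the counts scaled to a fixed library total after TMM normalization, with no correction for gene length. Mouse Gckr was at 9010 to 23053 CPM in the 12 samples with mP or mL. The libraries were of bulk cultures, in which fewer cells in mitosis and less mitotic RNA per cell cannot be told apart.

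A cell enters mitosis when cyclin B and Cdk1 form an active kinase. Wee1 holds that kinase back by phosphorylating Cdk1, and the Cdc25 phosphatases release it. The genes of this stage peak together after DNA replication, under the MuvB complex with B-Myb and FoxM1, which binds the CHR element of their promoters, whereas genes of the G1/S transition are driven by E2F factors. Adult hepatocytes are mostly quiescent, and in primary culture growth factors can bring them into the cell cycle.

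The promoters of the members hold the letters of this class. In the RefSeq promoters of build GRCm38.p6, 250 bases before to 50 bases after the start, 32 of the 38 members had an entry. TTTGAA, the core of the CHR, was found on either strand in 22 of the 32 members (68.8%), beside 20.2% of the 27025 genes in the table. CCAAT was found in 23 members (71.9%), beside 41.1% of all genes. It was also found in 68.8% of other G2/M genes, 56.8% of G1/S genes and 66.7% of genes that restrain mitotic entry. CCAAT was therefore not particular to the members. TTTGAA was found in 54.5%, 20.5% and 6.67% of the same 3 lists, which are described later. E2F-type sites were searched as TTTCGCGC, TTTCCCGC, TTTGGCGC and TTTGCCGC on both strands and each kind of motif was counted on its own, so matches of different kinds may overlap. An E2F-type site was found in 1 of the 32 members (3.12%), beside 2.6% of all genes and 17 of the 44 G1/S genes with an entry (38.6%). The 1 member was Cdk1, with TTTCGCGC at position -131. It also held TTTGAA at positions -71 and -15 and ATTGG, the reverse complement of CCAAT, at -208, -80 and -48. The stretches before the first annotated exon are shown for Cdk1, the only member called, and, chosen after the values were seen, for its partner Ccnb2 and for Top2a, the tested member whose estimate came next. Letters are 5′ to 3′ on the gene's strand, all minus, placed in GRCm39 by exact match, and capitals mark the 3 kinds of motif.
Cdk1, chr10:69188773-69188992: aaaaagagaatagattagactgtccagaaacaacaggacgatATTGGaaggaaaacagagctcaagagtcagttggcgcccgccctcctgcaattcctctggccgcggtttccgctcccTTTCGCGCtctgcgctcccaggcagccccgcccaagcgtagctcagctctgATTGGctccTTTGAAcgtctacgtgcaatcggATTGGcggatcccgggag
Ccnb2, chr9:70328875-70329086: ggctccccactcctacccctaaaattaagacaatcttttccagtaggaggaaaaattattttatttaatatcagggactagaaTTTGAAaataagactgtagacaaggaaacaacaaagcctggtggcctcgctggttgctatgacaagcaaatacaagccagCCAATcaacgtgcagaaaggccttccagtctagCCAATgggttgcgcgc
Top2a, chr11:98915063-98915265: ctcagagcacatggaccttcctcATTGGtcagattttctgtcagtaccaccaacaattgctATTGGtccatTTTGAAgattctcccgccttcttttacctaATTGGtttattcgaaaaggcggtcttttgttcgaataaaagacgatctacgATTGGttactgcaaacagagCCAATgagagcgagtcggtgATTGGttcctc
All 3 stretches hold a CHR core and CCAAT letters, and only that of Cdk1 holds an E2F-type site. A match describes the letters and does not show binding.

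Most of the mitotic genes were close to the limit of detection in every condition. Per length, in TPM (transcript abundance scaled to a fixed total per library), 5 of the 38 reached a mean of 1 over the 36 cultures: Pttg1 (33.9 TPM), Cdk1 (3.93), Mad2l1 (3.31), Kif22 (1.53) and Prc1 (1.49). The other 33 were lower, and 26 members had a median of fewer than 5 reads in a library. Pttg1, the securin that guards sister chromatid cohesion, held 37.0% of the 8481 reads counted over all members. Only 10 members passed the filter on low counts and could be tested. These were Cdk1, Aurka, Pttg1, Mad2l1, Top2a, Tpx2, Prc1, Anln, Mki67 and Mybl2. The other 28 had between 6 and 222 reads in all 36 libraries together.

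**Figure D1:**
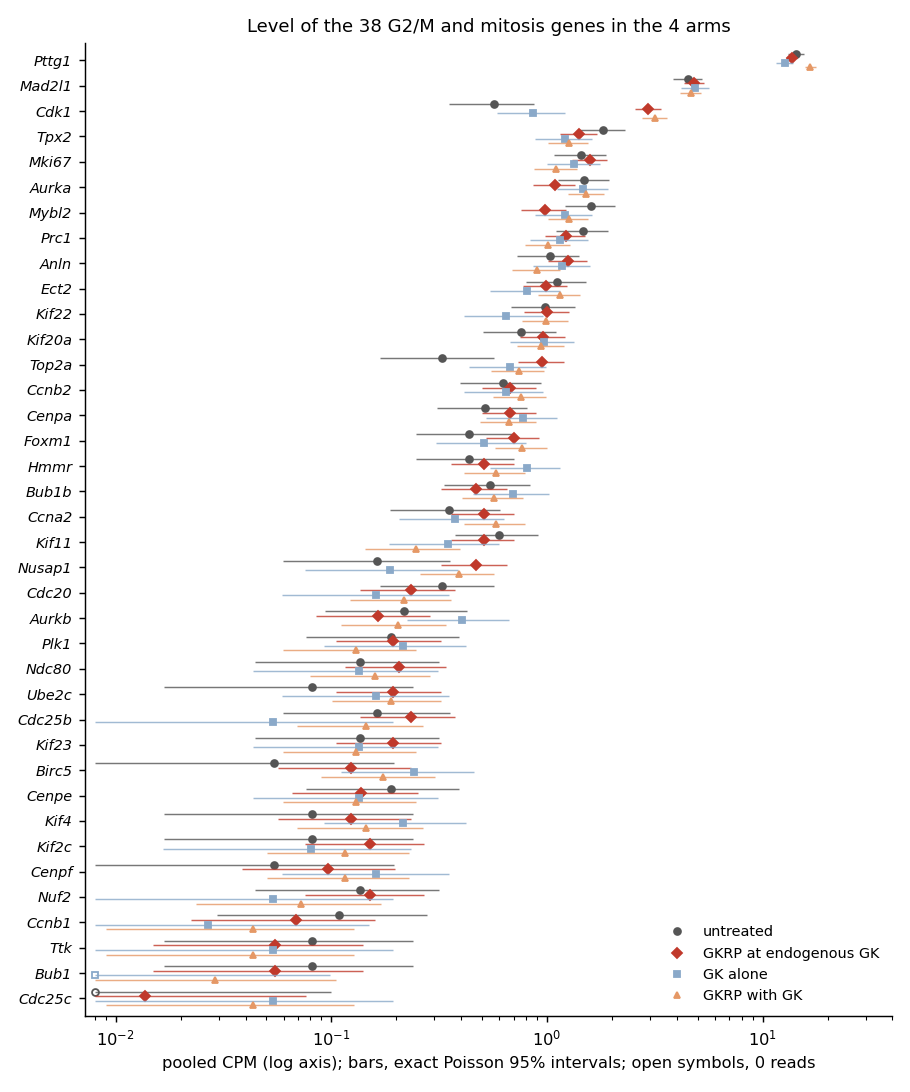
Level of each of the 38 members in 4 arms, as CPM of the reads pooled over the samples of an arm (log axis), with exact Poisson 95% intervals that cover counting error only; open symbols at the left edge stand for 0 reads. Arms are untreated (3 samples), GKRP vectors at endogenous GK (12), GK alone (3) and GKRP vectors with GK (12). Pttg1 and Mad2l1 lie highest in every arm, and Cdk1 was at 0.570 and 0.858 CPM without a GKRP vector and 2.95 and 3.16 CPM with one.

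Among the mitotic cyclins and the regulators of Cdk1, only Cdk1 was tested. Cdk1 (ENSMUSG00000019942, chr10:69170976-69236595, GRCm39, minus strand) encodes the kinase that drives entry into mitosis. In untreated cells it was at 0.693, 0.525 and 0.522 CPM in mice 1, 2 and 3. With hP it was at 2.79, 1.28 and 2.44 CPM, and with hL at 4.45, 1.65 and 3.54 CPM. With mP it was at 4.16, 2.11 and 2.74 CPM, and with mL at 4.80, 0.407 and 4.82 CPM. In 11 of the 12 samples Cdk1 was therefore above every untreated sample, and the exception was mL in mouse 2, which lay below all 3. Among the genes past the filter on low counts the difference was 4.92-fold (log2 fold change 2.30, SE 0.61, 95% confidence interval 1.04 to 3.55, adjusted p = 0.0465), but Cdk1 passed that filter only through the groups with a GKRP vector, and without the filter it was not called (log2 fold change 2.27, adjusted p = 0.0660). With the filter, 1 of the 10 tested members was called higher and 0 lower, while 1.49% of the 12177 genes tested rose and 0.402% fell. The median log2 fold change of the tested members was -0.06, and that of all genes -0.0014.

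The reads behind these levels were few. A sample held 7 reads of Cdk1 in each of the 3 untreated mice and between 2 and 31 with a GKRP vector. Within each mouse the mean of the 4 GKRP samples was 5.85, 2.59 and 6.49 times the untreated level in mice 1, 2 and 3. When the fit had a term for the mouse, the log2 fold change was 2.18 (adjusted p = 0.00101), and without the filter it was 2.15 in that fit (adjusted p = 0.00101), an alternative chosen after seeing the data. Without mouse 1 it was 2.14 (adjusted p = 0.349) and without mouse 3 it was 2.08 (adjusted p = 0.969), and at neither was it called. It was also not called with an offset for transcript length (log2 fold change 1.64, adjusted p = 0.936). Of the estimated Cdk1 reads over all cultures, 75.8% were given to the protein-coding transcript Cdk1-202 of 1253 bases. Pooled over samples and scaled to depth it was at 0.135 CPM in untreated cells, 2.21 CPM with the GKRP vectors, 0.635 CPM with GK alone and 2.59 CPM with GK and GKRP. The shorter Cdk1-207 of 695 bases was at 0.282, 0.334, 0.159 and 0.132 CPM in the same 4 arms, from 5.93 to 24.3 estimated reads an arm. The division of reads between these transcripts is an estimate from few reads and was not tested.

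**Figure D2:**
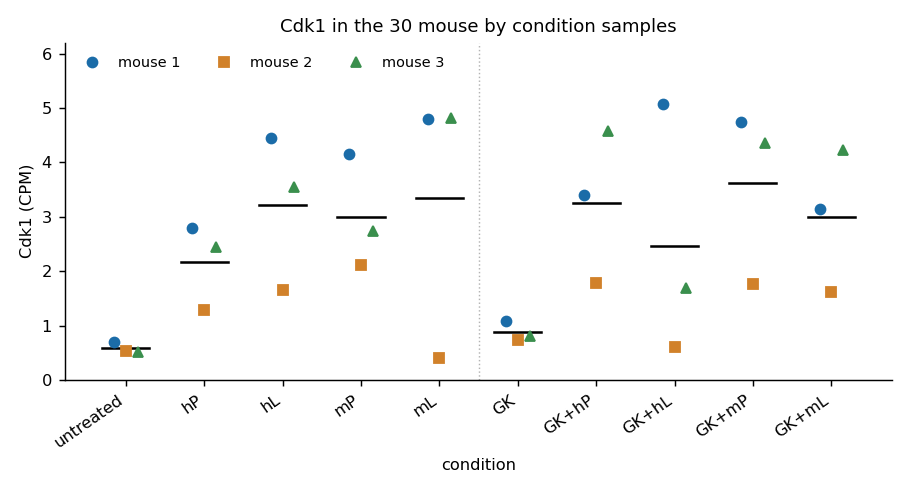
Cdk1 in CPM in each of the 30 samples, by condition; symbols are the 3 mice, the line is the mean of a condition, and the dotted line separates endogenous GK from GK overexpression. Samples with a GKRP vector sit above untreated and GK alone but for mL and GK with hL in mouse 2, and mouse 2 is the lowest mouse in all 8 conditions with a GKRP vector.

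With GK overexpressed, Cdk1 was at 1.09, 0.727 and 0.799 CPM with GK alone in mice 1, 2 and 3. It was at 3.40, 1.78 and 4.58 CPM with GK and hP and at 5.07, 0.611 and 1.68 CPM with GK and hL. With GK and mP it was at 4.75, 1.76 and 4.35 CPM and with GK and mL at 3.14, 1.61 and 4.23 CPM. Again 11 of 12 samples lay above all samples of GK alone, the exception being GK with hL in mouse 2. The difference was 3.48-fold (log2 fold change 1.80, SE 0.57) but missed the threshold in the fit without the mouse (adjusted p = 0.137) and passed it once the mouse was in the fit (log2 fold change 1.68, adjusted p = 0.00509, and 0.00783 without the filter). In this comparison 0 of the 10 tested members were called, while 1.11% of all genes tested rose and 0.501% fell. Without the filter on low counts edgeR also called 0 of the 38 and gave 1 member, Cdk1, an unadjusted p under 0.05. Among the genes past the filter, which Cdk1 passed only through the groups with a GKRP vector, DESeq2 called it (adjusted p = 0.0288). With the same filter but without mouse 2, edgeR called Cdk1 as well (log2 fold change 2.03, adjusted p = 0.0218). In the fits without the filter 0.385% of genes rose at endogenous GK, 0.287% with GK and 0.763% over both, and the members called were 0, 0 and 1.

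Over both levels of GK, Cdk1 was 4.14-fold higher with a GKRP vector (log2 fold change 2.05, SE 0.42, adjusted p = 0.00260), and 1 of the 10 tested members was called where 2.57% of all genes tested rose and 0.788% fell. This call was lost without mouse 1 (adjusted p = 0.0788) and without mouse 3 (adjusted p = 0.315), and with the length offset (adjusted p = 0.151). Cdk1 passed the filter only through the groups with a GKRP vector, and without the filter it was also the 1 member called. The effect at the 2 levels of GK was not shown to differ, and 0% of all genes passed for this difference by edgeR (178 at an unadjusted p under 0.05), with a difference of -0.50 on the log2 scale (95% confidence interval -2.09 to 1.09, adjusted p = 1). GK alone against untreated, the other comparison of a vector with none, gave a log2 fold change of 0.58 for Cdk1 (95% confidence interval -0.87 to 2.03, adjusted p = 1). No tested member was called there, where 0.00821% of genes rose, and the interval does not exclude a change. GKRP-446L against GKRP-446P gave a log2 fold change of 0.01 for Cdk1 (95% confidence interval -0.65 to 0.68), and 0 members were called where 0.00821% of genes rose. By edgeR and by DESeq2 0 members were called in these 3 comparisons, and 0 of 38 had an unadjusted p under 0.05 by edgeR without the filter.

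Each GKRP vector taken alone gave a higher Cdk1 estimate. At endogenous GK the log2 fold changes were 1.88 for hP (SE 0.70), 2.44 for hL (SE 0.70), 2.35 for mP (SE 0.69) and 2.52 for mL (SE 0.69). With GK they were 1.89 for hP (SE 0.67), 1.49 for hL (SE 0.68), 2.04 for mP (SE 0.67) and 1.77 for mL (SE 0.67). None of the 8 passed the threshold without the mouse term, with adjusted p between 0.10 (mL) and 0.671 (GK with hL), while the share of all genes that rose was 0.706%, 0.805%, 0.994% and 0.912% for hP, hL, mP and mL at endogenous GK and 0.632%, 0.468%, 1.03% and 0.558% for the same vectors with GK. With the mouse in the fit Cdk1 was called for 7 of the 8, with adjusted p between 0.00393 and 0.0385, and for GK with hL it was 0.142. These fits used the genes past the filter, which Cdk1 passed only through the groups with a GKRP vector. Without the filter and with the mouse in the fit, 5 of the 8 were called, with adjusted p between 0.00538 and 0.0265. Not called there were hP (adjusted p = 0.0641), GK with mL (0.0778) and GK with hL (0.308). Without the filter or the mouse 0 of the 8 were called. No other member was called for any single vector in any of these fits.

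The cyclin partners of Cdk1 had few reads in every arm. Ccnb1, which encodes cyclin B1, had 13 reads over all 36 libraries and none in 23 of them. Pooled over samples it was at 0.109 CPM in untreated cells (4 reads, exact Poisson 95% interval 0.0296 to 0.278) and at 0.0686 CPM with the GKRP vectors (5 reads, 0.0223 to 0.160). The intervals overlap, and a change of Ccnb1 was not detectable at this depth. Ccnb2, for cyclin B2, had 147 reads and was at 0.624 CPM untreated and 0.673 CPM with the GKRP vectors, and at 0.643 CPM with GK alone and 0.754 CPM with GK and GKRP. Ccna2, for cyclin A2, had 104 reads and was at 0.353, 0.508, 0.375 and 0.580 CPM in the same 4 arms, with overlapping intervals. The phosphatase genes Cdc25b and Cdc25c had 35 and 6 reads.

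Of the mitotic kinases, only Aurka passed the filter. Aurka (ENSMUSG00000027496, chr2:172198109-172212849, minus strand) encodes the kinase of centrosome maturation and had the highest level of its group (0.959 TPM). In mice 1, 2 and 3 it was at 1.88, 1.27 and 1.42 CPM in untreated cells and at 1.45, 1.45 and 1.52 CPM with GK alone. The 12 samples with GKRP at endogenous GK ran from 0 (hL, mouse 1) to 2.33 CPM (mL, mouse 3), on both sides of the untreated samples. Its log2 fold change was -0.55 (SE 0.41, adjusted p = 0.881) at endogenous GK and 0.02 (SE 0.41, adjusted p = 1) with GK. Plk1 (38 reads), Aurkb (49), Bub1 (9), Bub1b (119) and Ttk (12) were under the filter. They include the kinases of mitotic entry, of chromosome alignment and of the spindle checkpoint.

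In the group of the anaphase-promoting complex and the checkpoint, Pttg1 (ENSMUSG00000020415, chr11:43311071-43321000, minus strand) was at 15.7, 10.0 and 17.4 CPM in untreated cells of mice 1, 2 and 3. With the GKRP vectors at endogenous GK it lay between 9.34 and 17.1 CPM, which overlaps the untreated samples. In cells with GK alone it was at 12.3, 12.5 and 13.2 CPM. With GK and GKRP it was at 18.9 to 29.9 CPM in the 4 samples of mouse 1 but at 10.8 to 14.3 CPM in the other 8, so the higher values were those of 1 mouse. The log2 fold change was -0.10 (95% confidence interval -0.61 to 0.42) and, with GK, 0.38 (-0.15 to 0.91). The adjusted p was 1 and 0.767, and without mouse 1 the value with GK was -0.0155. Mad2l1, the checkpoint protein that holds Cdc20 inactive, lay between 2.96 and 6.72 CPM in all 30 samples and was not called in any comparison. Its values, like those of Top2a, Nusap1 and Mki67 given later, were chosen for description after they were seen. Cdc20, the activator of the complex, had 50 reads, and Ube2c, its ubiquitin-conjugating enzyme, had 36.

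**Figure D3:**
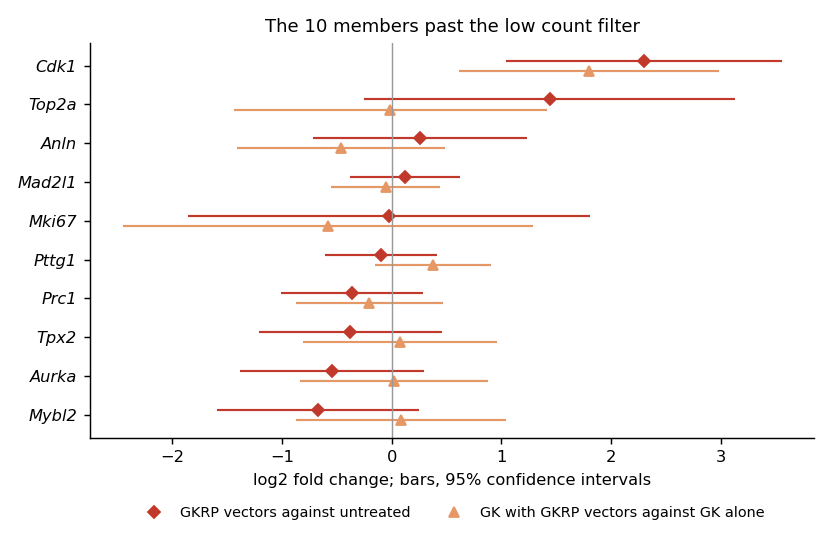
Log2 fold changes of the 10 members past the filter with 95% confidence intervals, for GKRP vectors against untreated (diamonds) and for GK with GKRP vectors against GK alone (triangles). Only the intervals of Cdk1 lie to the right of 0 in both comparisons, and the intervals of the other 9 members include 0.

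No kinesin passed the filter. Kif22 (ENSMUSG00000030677, chr7:126626898-126641643, minus strand), a chromosome-arm kinesin, was the highest of them (1.53 TPM, 200 reads). It was at 1.29, 0.975 and 0.745 CPM in untreated cells and ran from 0.311 to 1.63 CPM with the GKRP vectors. GK alone gave 0.817, 0.363 and 0.799 CPM and with GK and GKRP it ran from 0.349 to 1.88 CPM. The groups overlap in both comparisons. Kif20a had 201 reads and Kif11, the motor that separates the spindle poles, had 89, while Kif23, Kif4 and Kif2c had 33, 30 and 25.

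No centromere or kinetochore gene passed the filter either. Cenpa (ENSMUSG00000029177, chr5:30824121-30842921, plus strand), the histone H3 variant that marks centromeres, led the group with 0.769 TPM and 143 reads. It was at 0.495, 0.750 and 0.298 CPM in untreated cells and ran from 0 to 1.13 CPM with the GKRP vectors. GK alone gave 0.363, 0.581 and 1.36 CPM and with GK and GKRP it ran from 0.349 to 1.23 CPM. The ranges overlap. Cenpe, Cenpf, Ndc80, Nuf2 and Birc5, which attach chromosomes to the spindle or guard that attachment, had between 23 and 36 reads each.

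Of the spindle, chromosome and cytokinesis genes, 4 of 7 were tested and none was called. Prc1 (ENSMUSG00000038943, chr7:79944168-79966011, plus strand), which bundles the microtubules of the midzone, was the highest by TPM. It was at 1.48, 1.35 and 1.57 CPM in untreated cells and from 0.469 to 2.06 CPM with the GKRP vectors. With GK alone it was at 1.72, 1.24 and 0.559 CPM, and samples with both vectors ran from 0.510 to 1.63 CPM. Its log2 fold changes were -0.36 (SE 0.31, adjusted p = 0.946) and -0.20 (SE 0.32, adjusted p = 1). Top2a, the topoisomerase that untangles chromosomes, was at 0.396, 0.450 and 0.149 CPM in untreated cells and at 0.183 to 2.74 CPM with the GKRP vectors. The mean of the 4 GKRP samples was 1.76 CPM in mouse 1, 0.401 CPM in mouse 2 and 0.732 CPM in mouse 3, so mouse 2 lay below its own untreated sample. With GK alone it was at 1.54, 0.363 and 0.240 CPM, and no comparison called it. Tpx2 and Anln, a spindle assembly factor and a cytokinesis scaffold, were tested and not called. Ect2, Hmmr and Nusap1 had 222, 123 and 74 reads and were under the filter. For Nusap1, a microtubule-bundling protein, the unadjusted p over both levels of GK was 0.0485 without the filter (adjusted p = 0.553). In that comparison 2 of the 38 members had an unadjusted p under 0.05. At endogenous GK Nusap1 was at 0.163 CPM untreated (6 reads) and 0.467 CPM with the GKRP vectors (34 reads). With GK alone it was at 0.363, 0.218 and 0 CPM in mice 1, 2 and 3. The means of the samples with GK and GKRP were 0.440, 0.479 and 0.237 CPM in the same mice.

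Among the genes of transcription and proliferation, Mybl2 (ENSMUSG00000017861, chr2:162896435-162926614, plus strand), which encodes the B-Myb that drives G2/M genes, was at 0.693, 2.40 and 1.49 CPM in untreated cells. With the GKRP vectors it ran from 0.155 to 1.85 CPM. With GK alone it was at 0.544, 1.74 and 1.2 CPM and with GK and GKRP it ran from 0.510 to 1.89 CPM. The groups overlap, and its log2 fold changes were -0.67 (SE 0.44, adjusted p = 0.806) and 0.09 (SE 0.46, adjusted p = 1). Foxm1 had 139 reads and was under the filter.

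Mki67, the proliferation marker Ki-67, was high in mouse 1 and was not called in any comparison. Its level was 0.939 to 5.83 CPM in the 10 samples of mouse 1, 0.204 to 0.972 CPM in mouse 2 and 0 to 0.947 CPM in mouse 3. In untreated cells it was at 3.76, 0.675 and 0.447 CPM, so mouse 1 stood high without any vector. Within the mice, the mean of the 4 GKRP samples was 1.01, 1.01 and 1.12 times the untreated level. Mouse 1 also held 93 of the 157 reads of Top2a and 67 of the 139 reads of Foxm1. Other members went the other way. Mybl2 had 55, 109 and 98 reads in mice 1, 2 and 3, with medians of 0.698, 1.18 and 1.33 CPM. Tpx2 had 57, 126 and 119 reads, with medians of 0.710, 1.63 and 1.38 CPM. Hmmr had 29, 54 and 40 reads, but scaled to depth its medians were 0.431, 0.755 and 0.407 CPM, lowest in mouse 3. The summed level of the 6 cholangiocyte markers was 142.7 to 244.7 CPM in mouse 1, 15.4 to 22.9 CPM in mouse 2 and 23.7 to 34.3 CPM in mouse 3, and that of the 10 stellate cell markers was 25.6 to 43.1, 128.1 to 160.9 and 72.7 to 98.5 CPM. Of the cholangiocyte markers, Krt19, Krt7, Epcam and Cldn7 were under the filter on low counts, so that sum rests mainly on Sox9 and Spp1. Of the stellate cell markers, Des, Col1a1, Col1a2, Acta2 and Pdgfrb were under it. These sums therefore cannot show how many cells of a type a culture held. The part of other cell types in the difference between mice was not tested, and no test of the mice was made.

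**Figure D4:**
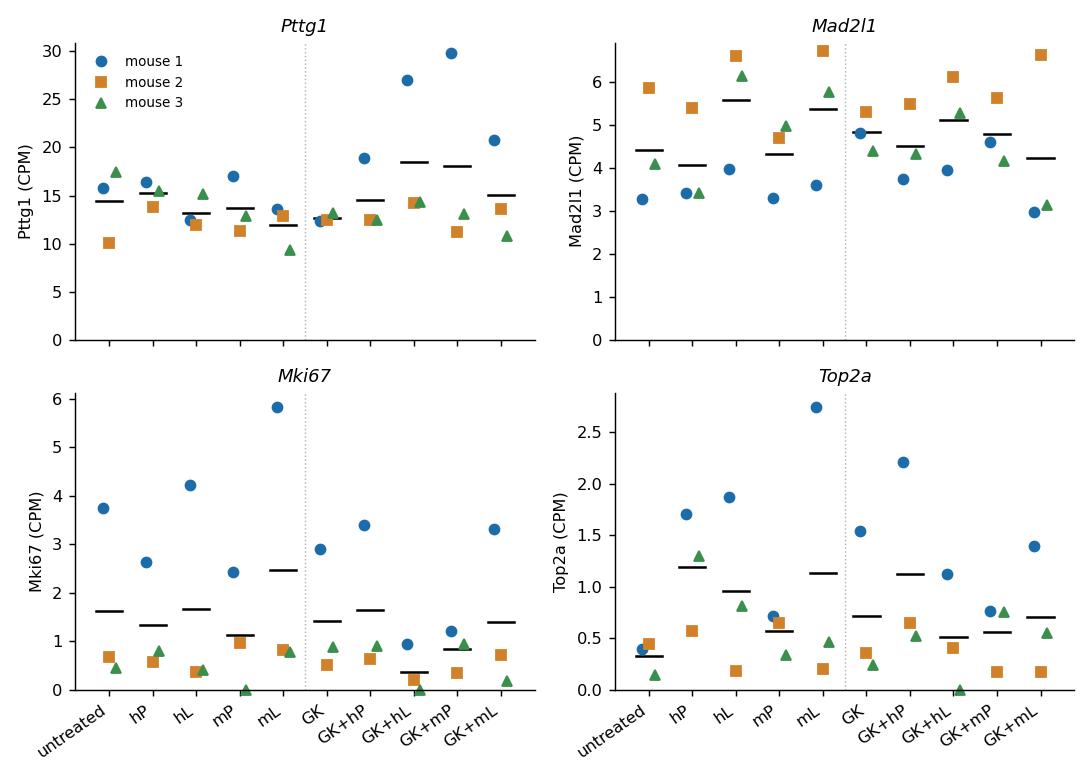
Pttg1, Mad2l1, Mki67 and Top2a in CPM in the 30 samples; symbols are the 3 mice, lines are condition means, and the dotted line separates endogenous GK from GK overexpression. Mki67 of mouse 1 reaches 5.83 CPM while mice 2 and 3 stay under 1 CPM, and Mad2l1 is highest in mouse 2 in all conditions but mP.

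The summed level of the members overlapped between the arms. Over all 38 the summed level was 33.5 to 40.4 CPM in untreated samples and 33.0 to 48.5 CPM with the GKRP vectors. It was 34.0 to 37.2 CPM with GK alone and 33.8 to 58.5 CPM with GK and GKRP. Without Pttg1, Mad2l1 and Cdk1 the median was 17.1 CPM in untreated samples and 17.3 CPM with the GKRP vectors, and 17.4 and 16.7 CPM with GK alone and with GK and GKRP. The ranges overlap in each of these sums.

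Many genes of earlier stages of the cycle rose. Of 56 genes of the G1/S transition and of DNA replication, all of which were tested, 35 rose and 0 fell with the GKRP vectors at endogenous GK, with a median log2 fold change of 1.18. With GK, 37 rose and 0 fell, with a median of 1.11. Of all genes tested 1.49% rose at endogenous GK and 1.11% with GK. The 56 genes were listed with the earlier results of these data known, so their direction is not independent evidence. The 5 with the smallest p at endogenous GK were Chaf1b (log2 fold change 2.35, SE 0.17), a subunit of the histone chaperone of replication, Mcm6 (1.53, SE 0.12), Mcm3 (2.06, SE 0.17) and Mcm4 (2.48, SE 0.23), subunits of the replicative helicase, and Chek1 (3.59, SE 0.39), the checkpoint kinase of replication stress, with adjusted p between 6.22e-09 and 5.72e-06. The summed level of the 56 genes was 582 to 739 CPM in untreated samples and 1292 to 1723 CPM with the GKRP vectors, without overlap. With GK alone it was 618 to 792 CPM and with GK and GKRP 1335 to 1788 CPM, again without overlap. As the list was drawn up with earlier results known, the separation of these sums is not independent evidence either. How many lists of this size separate in this way was not counted. With the offset for transcript length 9 of the 56 were called in each comparison, without mouse 1 the calls were 22 and 18, and without mouse 3 they were 9 and 10.

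**Figure D5:**
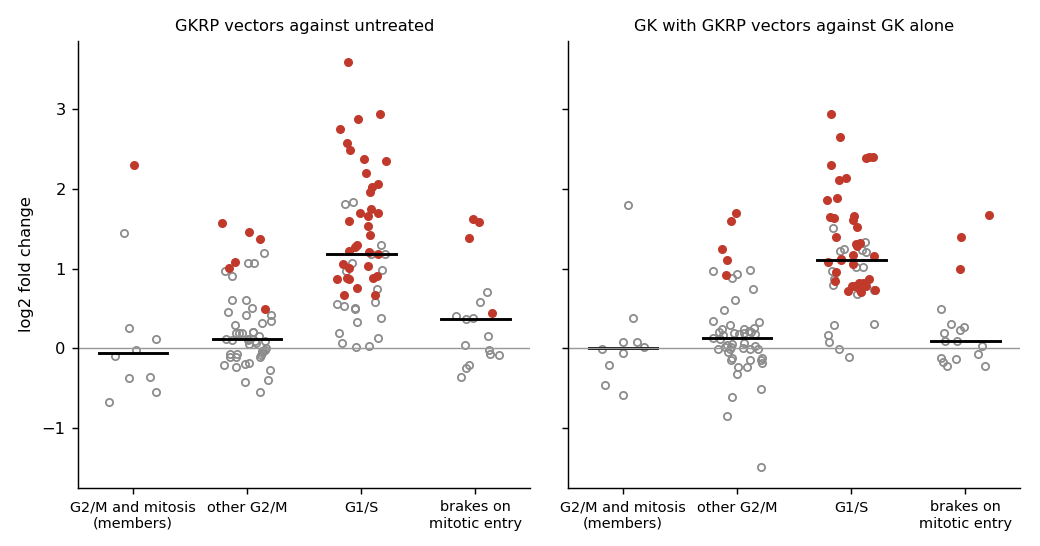
Log2 fold change of each tested gene in 4 lists, for GKRP vectors against untreated (left) and GK with GKRP vectors against GK alone (right); filled points passed the call, lines are medians. The medians at endogenous GK were -0.06 for the members, 0.12 for the other G2/M genes, 1.18 for the G1/S genes and 0.37 for the genes that hold back mitotic entry.

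Of 94 other genes listed for a role in G2 or mitosis, 53 were tested. The list was not limited to genes whose level peaks in that phase. At endogenous GK 6 rose and 0 fell, with a median of 0.12, where 1.49% of all genes tested rose. With GK 5 rose and 0 fell, with a median of 0.12, where 1.11% of all genes tested rose. The blocked fit gave 10 and 8 that rose, and with GK 1 that fell. The share of all genes called in that fit was not counted. Without the filter, the mouse term raised the share of all genes that rose from 0.385% to 1% at endogenous GK. With GK it raised that share from 0.287% to 0.791%, so more calls under the block are not particular to these genes. The 5 with the smallest p at endogenous GK were Cdc25a (1.08, SE 0.17, adjusted p = 0.000477), a phosphatase of both G1/S and G2/M, the chromatin protein Hmgb2 (1.57, SE 0.27, adjusted p = 0.00133), the histone-binding Rbbp4 (0.49, SE 0.09, adjusted p = 0.00256), Lmnb1 of the nuclear lamina (1.46, SE 0.29, adjusted p = 0.00542) and the condensin subunit Ncapg2 (1.37, SE 0.28, adjusted p = 0.00611). Several of these also act in replication or in chromatin outside mitosis. In each comparison 1 of the 53 was called without mouse 1 and 1 without mouse 3.

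Of 19 genes that restrain entry into mitosis or the cycle, 17 were tested. At endogenous GK 4 rose and 0 fell, where 1.49% of all genes tested rose. With GK 3 rose and 0 fell, where 1.11% of all genes tested rose. These 19 genes and the other G2/M genes were also listed with the earlier results of these data known. Wee1, the kinase that inhibits Cdk1, was at 8.79 to 10.5 CPM in untreated samples and at 24.7 to 42.0 CPM with the GKRP vectors. It was at 13.9 to 15.4 CPM with GK alone, and with both vectors it ran from 24.2 to 33.1 CPM, so the groups did not overlap in either comparison. The share of all genes without such overlap was not counted. The samples of GK alone also lay above every untreated sample, so separation from untreated was not limited to the GKRP vectors. Wee1 rose 3.07-fold at endogenous GK (log2 fold change 1.62, SE 0.11, adjusted p = 6.22e-09) and 1.99-fold with GK (0.99, SE 0.11, adjusted p = 5.06e-06). With the length offset the rise with GK was not called (adjusted p = 0.420). Rbl1, the pocket protein p107, rose at both levels of GK (1.58, SE 0.20, and 1.68, SE 0.20). Cdkn2c, an inhibitor of the kinases of G1, also rose at both (1.39, SE 0.34, and 1.4, SE 0.34). Cdkn1a, the inhibitor p21, rose at endogenous GK (0.44, SE 0.09, adjusted p = 0.00452) and was at 0.19 with GK (adjusted p = 0.440). Without mouse 1 and without mouse 3 at endogenous GK 2 of the 4 calls were made.

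Of the markers of macrophages (12), endothelial cells (10), stellate cells (10), cholangiocytes (6) and lymphocytes (6, none past the filter), 0 of those tested were called by edgeR at either level of GK, and 0 had an unadjusted p under 0.05. The summed macrophage level was 296.5 to 366.5 CPM in untreated samples and 273.4 to 340.5 CPM with the GKRP vectors. The summed lymphocyte level did not pass 0.757 CPM in any sample, and Nkg7 was at 0 in all 36 libraries. None of the 8 hepatocyte markers was called, and their summed level was 69642 to 136380 CPM over the 30 samples.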

How the data were processed

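The authors deposited for each of the 36 cultures the output of Salmon 1.4.0, run on untrimmed reads against the transcripts of Gencode M26 (GRCm39). It gives estimated counts and, as normalized by the authors, TPM for 139225 transcripts. Reads that fit several transcripts were divided by estimation. Effective transcript lengths, as deposited, served only for the length offset. Of the transcripts, 137570 were matched by Ensembl identifier to Gencode M39, and the others held 0.392 to 0.639% of a library. Estimated counts were summed per gene and rounded, and the 2 cultures of a mouse and condition were summed.

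Counts were tested with edgeR 4.0.16 (quasi-likelihood F test, filterByExpr, TMM factors of 0.901 to 1.094) in R 4.3.3, on all 30 samples with the condition as the only term, and p-values were adjusted by Benjamini-Hochberg over 12177 genes. A call needed an adjusted p under 0.05 and a fold of at least 1.3 or at most 0.7. The SE was the log2 fold change over the square root of F. Samples of 1 mouse deviated together (mean correlation 0.223, over 0.1 in 82.2% of 135 pairs), and the mouse was a term in an alternative fit. DESeq2 1.42.0, other filters, normalization and length offsets, and leaving out each mouse were further alternatives. The mouse term without the filter, and leaving out 1 culture, were added after seeing the data. The script was tested on simulated data. Values were described per sample for members called in the comparison of GKRP vectors and for the member with the highest TPM of each group, and up to 5 called genes were named from each other list. The members, lists and tests were chosen with earlier results of these data known. Poisson intervals cover counting error only. The level of 1 gene is not reported here.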

Additional observations from a re-analysis of the deposited data

Results flagged for a closer look

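In 24 comparisons the highest or lowest of the 6 cultures of untreated cells or of GK alone was set against the other 5. By Dixon's criterion (gap over range above 0.625 for 6 values) 2 cultures stood apart. Chance gives about 1 in 20 for independent values. These were 2 cultures from each of 3 mice, so that rate is only a guide. Mad2l1 was at 5.63 CPM in 1 of the GK cultures of mouse 2, with the other 5 at 4.26 to 4.75 CPM. Mouse Gckr was at 1462 CPM in 1 of the GK cultures of mouse 3, with the other 5 at 51.8 to 98.0 CPM. Without that culture, an alternative chosen after seeing the data, the log2 fold change of Cdk1 with GKRP vectors was 2.30 at endogenous GK (adjusted p = 0.0476) and 1.67 with GK (adjusted p = 0.190).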

How the results depend on the processing

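The direction of Cdk1 with GKRP vectors was upward under all 14 alternatives at each level of GK and over both, with log2 fold changes of 1.64 to 2.55 at endogenous GK, 1.58 to 2.33 with GK and 1.83 to 2.29 over both. The number of members called upward at endogenous GK fell from 1 to 0 without the low count filter and with the length offset, with 0 to 1 on leaving out a mouse. With GK it rose from 0 to 1 with DESeq2, with the replicate block (mouse as a term), with DESeq2 and the block, with the block and no low count filter (chosen after seeing the data), and with each culture as a sample, with 0 to 1 on leaving out a mouse. Over both it was 0 with the length offset and 0 to 1 on leaving out a mouse. The block gave 1 for each single vector but GK with hL, where it gave 0, and the block without the filter gave 1 for 5 of the 8. The number of members called downward was 0 under every alternative, and the other comparisons (the difference between levels of GK, GK alone and 446L against 446P) kept 0.

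For the other G2/M genes, the block and DESeq2 with the block both gave 10 upward calls at endogenous GK and 8 with GK, the length offset gave 0, 0 and, over both, 5, and leaving out a mouse gave 1 to 4, 1 to 3 and 5 to 8. With GK 1 fell under the block, with or without the filter, and DESeq2 with the block, and over both 1 fell with DESeq2, the block, both together and each culture as a sample. Under the block with the filter, DESeq2 with the block and the length offset, the share of all genes called was not counted. For the G1/S genes the length offset gave 9, 9 and 26 upward calls and leaving out a mouse 9 to 31 (22 without mouse 1), 10 to 29 (18 without mouse 1) and 25 to 42. For the genes that restrain mitotic entry, the number at endogenous GK was 2 without the filter and with the length offset and 2 to 3 on leaving out a mouse, with GK it was 1 with the length offset, and 2 on leaving out any mouse, and over both it was 5 under the block, DESeq2 with the block and each culture as a sample, and 2 to 4 on leaving out a mouse.

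Values that were not called changed sign as follows. With the length offset Cdk1 was at 0.70 for the difference between levels of GK, -0.55 for GK alone and -0.83 for 446L against 446P. For 446L against 446P Cdk1 was also at -0.058 under the block, -0.0561 under the block without the filter, -0.0369 under DESeq2 with the block, -0.22 without mouse 1 and -0.0042 without mouse 3. With GK Aurka was at -0.0236 without the filter, -0.0324 under the block without it, -0.10 with the length offset, -0.12 without mouse 1 and -0.0053 without mouse 3. Pttg1 was at 0.12 with the length offset and 0.0548 without mouse 3 at endogenous GK, and at -0.0155 without mouse 1 with GK. Prc1 was at 0.15 and, with GK, 0.57 with the length offset and 0.34 without mouse 1, and Mybl2 with GK was at -0.19 without mouse 1 and -0.17 without mouse 3. The cause of these changes was not tested. The 28 members under the filter, with 6 to 222 reads over all libraries, were tested only in the fits without it.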
